A study of Homo sapiens with 17 samples.

Results

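The genes described here are 10 cell-surface or secreted receptors of the TNF receptor superfamily, TNFRSF1A, TNFRSF1B, TNFRSF9, TNFRSF10A, TNFRSF10B, TNFRSF11B, TNFRSF12A, LTBR, CD40 and FAS, taken by symbol from the 26457 genes listed in the expression table. They were measured by mRNA-seq in SW480, a line of human colon cancer cells with a p53 missense mutant (mutp53). Cells expressed a doxycycline-inducible short hairpin RNA (shRNA) against either LacZ, the control, or p53, the mutp53-depleted or depleted line, and were harvested without TNF-α (0 h) or after 16 h with 12.5 ng/ml TNF-α. Each of the 4 groups had 2 biological replicates, A and B, which gives 8 libraries. Both shRNA lines were exposed to doxycycline at 1 µg/ml, so the agent is shared by controls and mutp53-depleted cells. Control and mutp53-depleted cells were also separate stable lines, 1 for each shRNA, so a difference between the lines that does not come from the shRNA target and the effect of mutp53 depletion cannot be told apart.

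Receptors of this family bind trimeric ligands of the TNF family. TNFRSF1A (TNFR1), FAS and the TRAIL receptors TNFRSF10A and TNFRSF10B carry a cytoplasmic death domain, through which they can recruit FADD and caspase-8, whereas TNFRSF1B (TNFR2), TNFRSF9 (4-1BB), TNFRSF12A (the TWEAK receptor Fn14), LTBR and CD40 lack it and bind TRAF adaptors that lead to NFκB. TNFRSF11B (osteoprotegerin) is secreted and acts as a decoy for RANKL and TRAIL, and several genes of the family are known NFκB targets.

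TNFRSF9 was the member with the largest response to TNF-α, and TNFRSF1B and TNFRSF1A are the receptors of the ligand that was added, so the 250 bases before the RefSeq transcription start of these 3 genes are printed here (GRCh38.p14, 5′ to 3′ on the gene's strand). Capitals mark a match to the 10-base NFκB consensus, searched on both strands. TNFRSF9 lies at chr1:7940840-7941089 on the minus strand, TNFRSF1B at chr1:12166741-12166990 on the plus strand and TNFRSF1A at chr12:6342077-6342326 on the minus strand.
TNFRSF9: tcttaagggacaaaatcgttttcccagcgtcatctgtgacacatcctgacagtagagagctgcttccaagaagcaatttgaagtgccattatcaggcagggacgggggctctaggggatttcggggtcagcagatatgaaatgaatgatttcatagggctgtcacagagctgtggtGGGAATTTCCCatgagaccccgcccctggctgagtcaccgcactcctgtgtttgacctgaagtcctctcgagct
TNFRSF1B: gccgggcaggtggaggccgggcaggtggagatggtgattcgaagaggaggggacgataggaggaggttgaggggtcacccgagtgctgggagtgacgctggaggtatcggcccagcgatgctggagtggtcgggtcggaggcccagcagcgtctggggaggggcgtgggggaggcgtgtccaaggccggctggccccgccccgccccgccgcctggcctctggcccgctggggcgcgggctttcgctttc
TNFRSF1A: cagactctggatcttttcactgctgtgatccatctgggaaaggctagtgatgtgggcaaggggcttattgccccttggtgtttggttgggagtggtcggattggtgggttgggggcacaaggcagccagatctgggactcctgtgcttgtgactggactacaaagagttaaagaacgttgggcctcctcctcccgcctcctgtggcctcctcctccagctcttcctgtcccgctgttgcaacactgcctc

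In TNFRSF9 the consensus matched on both strands at overlapping positions, 74 and 73 bases before the start, which gives the 11-base run GGGAATTTCCC. The windows of TNFRSF1B, TNFRSF1A and LTBR held no match, and 1 of 3 windows of FAS held one, 157 bases before that start. Of 35116 RefSeq promoter windows, 5.2% had at least 1 match in these 250 bases. Windows are given for these 5 members, with 7 windows of which 2 had a match. Windows on chromosome 8, where TNFRSF10A, TNFRSF10B and TNFRSF11B lie, were left out and are not reported here. A match describes letters in the window and no binding.

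Values are reads on a gene's exons multiplied by 1 factor per library, so that libraries share 1 total, and 1 read was worth 0.67 to 1.51 normalized reads. Libraries held 6108488 to 13809578 reads on genes. Of 8 epithelial markers, 7 were above 3 reads in every library except VIL1, which had 0 reads in the depleted line at 16 h replicate B, and CDX1 had 0 reads in all. The summed epithelial markers ranged from 66176 to 70708 normalized reads in the control line at 0 h, 56292 to 56382 at 16 h, 52452 to 52479 in the depleted line at 0 h and 42726 to 43889 at 16 h, and KRT8 and KRT18 made up most of this sum. Of the 7 tested, at a limma adjusted p below 0.05, 5 were lower and 1 higher with TNF-α in each line. The shares of all tested genes were 15.2% and 11.1% in control cells and 16.9% and 9.80% in the depleted line. With depletion 5 were lower and 1 higher at 0 h, beside 25.2% and 27.3%. At 16 h 5 were lower and 2 higher with depletion, beside 26.5% and 24.9%. Single markers are given here for depletion at 0 h. KRT19 was higher, at 7394 and 7114 in the control line at 0 h and 8647 and 8716 in the depleted line, and VIL1 lower, at 545 and 480.2 against 8.71 and 12.3. The part of these shifts in the results below was not tested. Summed leukocyte markers stayed between 4.94 and 37.7, and CD14 made up most of this sum. Summed fibroblast and endothelial markers were between 24.2 and 34.8 in control libraries and between 48.6 and 106 in mutp53-depleted libraries. COL1A1 made up most of that sum and was higher with depletion at 0 h (log2 1.51, limma adjusted p = 3.12e-05) and 16 h (log2 0.93, limma adjusted p = 0.00295). Fewer cells of a kind and less RNA per cell cannot be told apart in these bulk samples.

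**Figure D1:**
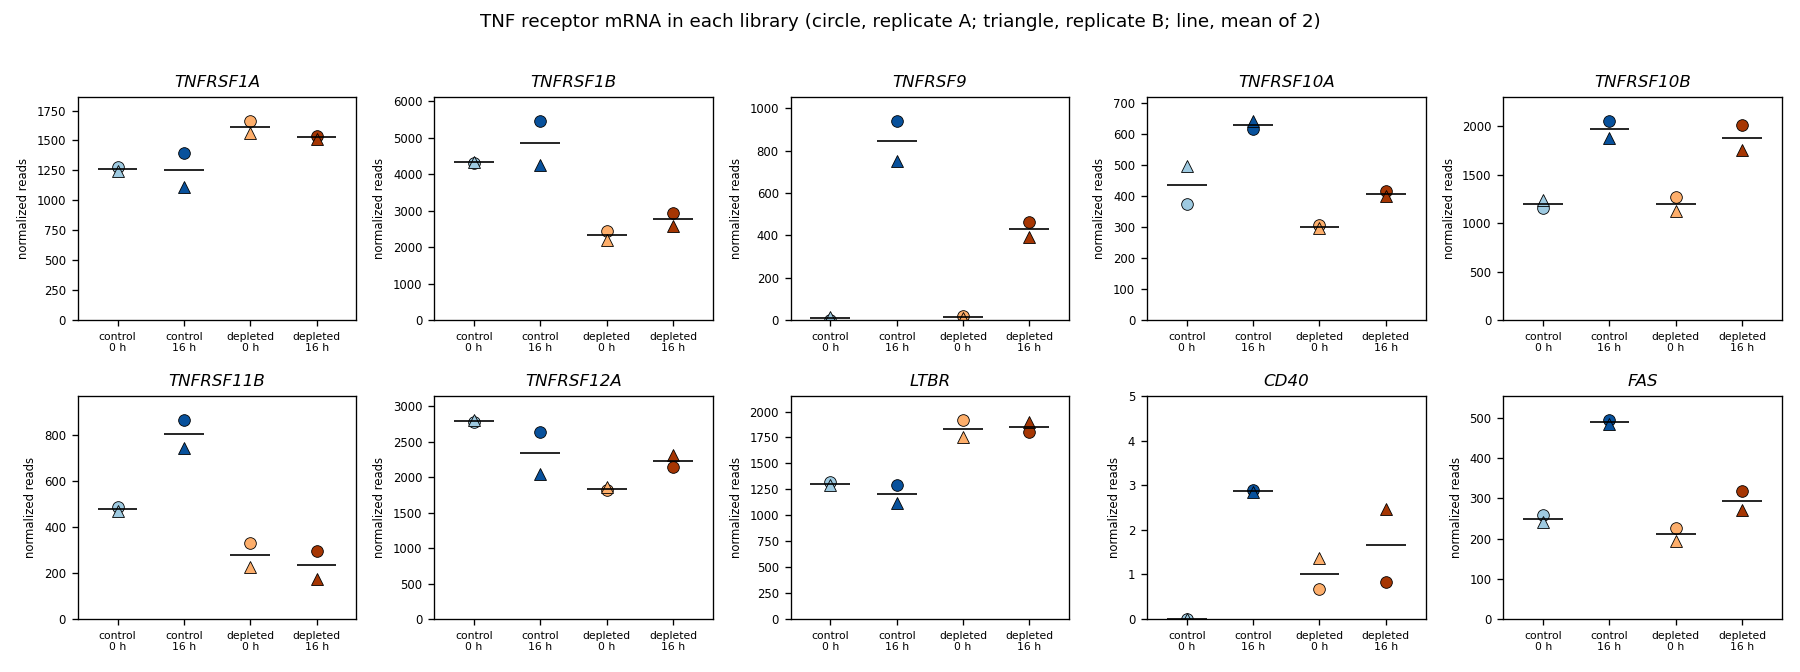
Normalized reads of the 10 receptors (y axis, linear, from 0, scaled per gene) in the 4 groups (x axis), with a circle for replicate A, a triangle for replicate B and a line for the mean of the 2. TNFRSF9 rose from at most 18.8 normalized reads at 0 h to at least 394 at 16 h, TNFRSF1B and TNFRSF11B sat lower in all mutp53-depleted libraries than in all control libraries, and CD40 did not exceed 2.90.

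Per kilobase of gene model, TNFRSF12A was the most abundant of the 10 in control cells at 0 h, with a mean of 2720 normalized reads per kb, followed by TNFRSF1B with 1182. LTBR with 579 and TNFRSF1A with 570 came next and overlapped between libraries, as did TNFRSF10B with 289 and TNFRSF10A with 250. TNFRSF11B with 204 and FAS with 93.9 followed, and TNFRSF9 with 1.64 and CD40 with 0 stood last. In mutp53-depleted cells at 0 h the order behind TNFRSF12A, which had a mean of 1788 normalized reads per kb, was LTBR with 813, TNFRSF1A with 728 and TNFRSF1B with 634, and the libraries of these 3 did not overlap. After 16 h of TNF-α, TNFRSF9 reached a mean of 141 normalized reads per kb in control cells, below FAS with 184, and 71.7 in mutp53-depleted cells. There the TNFRSF9 libraries overlapped none of FAS, whose mean was 111, but overlapped those of TNFRSF11B, whose mean was 100.

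**Figure D2:**
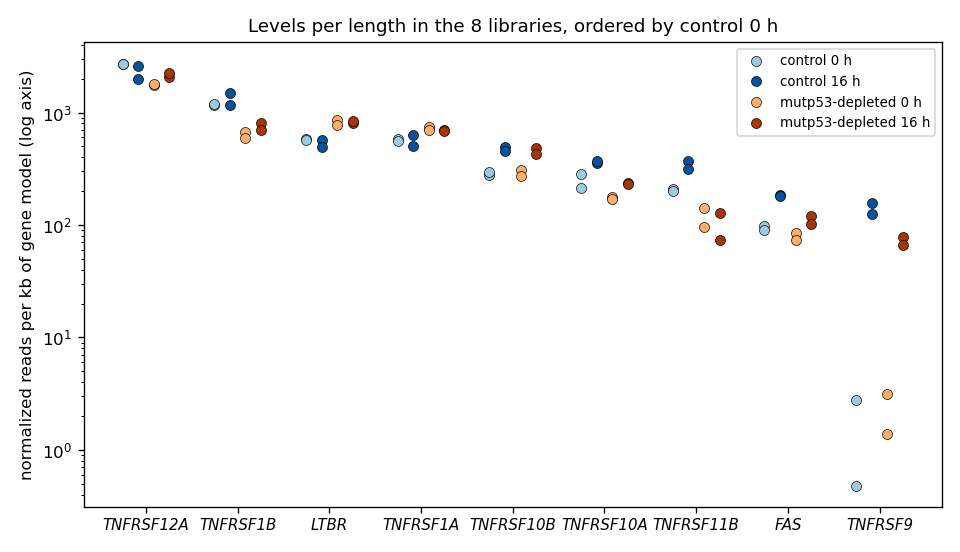
Normalized reads per kb of gene model (y axis, log scale) for 9 receptors, ordered by control cells at 0 h, with each library as a point colored by group. TNFRSF12A was highest in all 4 groups, TNFRSF1B moved from rank 2 in control cells to rank 4 in the depleted line at 0 h, and CD40, with a mean of 0 in control cells at 0 h, is not drawn on the log axis.

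To ask how chronic TNF-α changed the receptors in control cells, the 16 h libraries were compared with those at 0 h. CD40 stayed under the filter of a mean of 2.5 normalized reads, so 9 of the 10 genes were tested. TNFRSF9, FAS, TNFRSF11B, TNFRSF10B and TNFRSF10A rose and TNFRSF12A fell (limma with Benjamini-Hochberg adjustment over 14800 genes, adjusted p below 0.05, the TNFRSF12A call being lost in 12 of 18 alternatives), which makes 5 of 9 higher where 11.1% of all tested genes were higher, and 1 of 9 lower where 15.2% were lower. With an added limit of 2-fold, 1 of the 9, TNFRSF9, passed, against 7.24% of all tested genes. The median log2 fold change of the 9 was 0.55, beside -0.05 over all tested genes.

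In mutp53-depleted cells the same comparison gave 5 of 9 higher, TNFRSF9, TNFRSF10B, FAS, TNFRSF10A and TNFRSF12A, beside 9.80% of all tested genes, and 0 of 9 lower, beside 16.9%. The count of lower members in limma was also 0 at an unadjusted p below 0.05, and it was 0 in edgeR and DESeq2. With 1 library left out, however, TNFRSF11B was called lower in 1 fit, at a log2 fold change of -0.66. TNFRSF9 was again the 1 gene past 2-fold, where 6.36% of all tested genes passed. The median log2 fold change of the 9 was 0.28, beside -0.06 over all tested genes.

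Depletion of mutp53 was then compared within each time. At 0 h, LTBR and TNFRSF1A were higher, 2 of 9 beside 27.3% of all tested genes, and TNFRSF1B, TNFRSF12A, TNFRSF11B and TNFRSF10A were lower, 4 of 9 beside 25.2%. At 16 h, LTBR and TNFRSF1A were again higher, 2 of 9 beside 24.9%, and TNFRSF11B, TNFRSF1B, FAS and TNFRSF10A were lower, 4 of 9 beside 26.5%. None of the 9 reached 2-fold at 0 h, where 15.4% of all tested genes did, and TNFRSF11B alone did at 16 h, where 15.2% did. Median log2 fold changes of the 9 were -0.24 at 0 h and -0.63 at 16 h, beside 0.03 and -0.01 over all tested genes. Comparisons of the same cells share libraries, so these counts are not independent of each other.

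**Figure D3:**
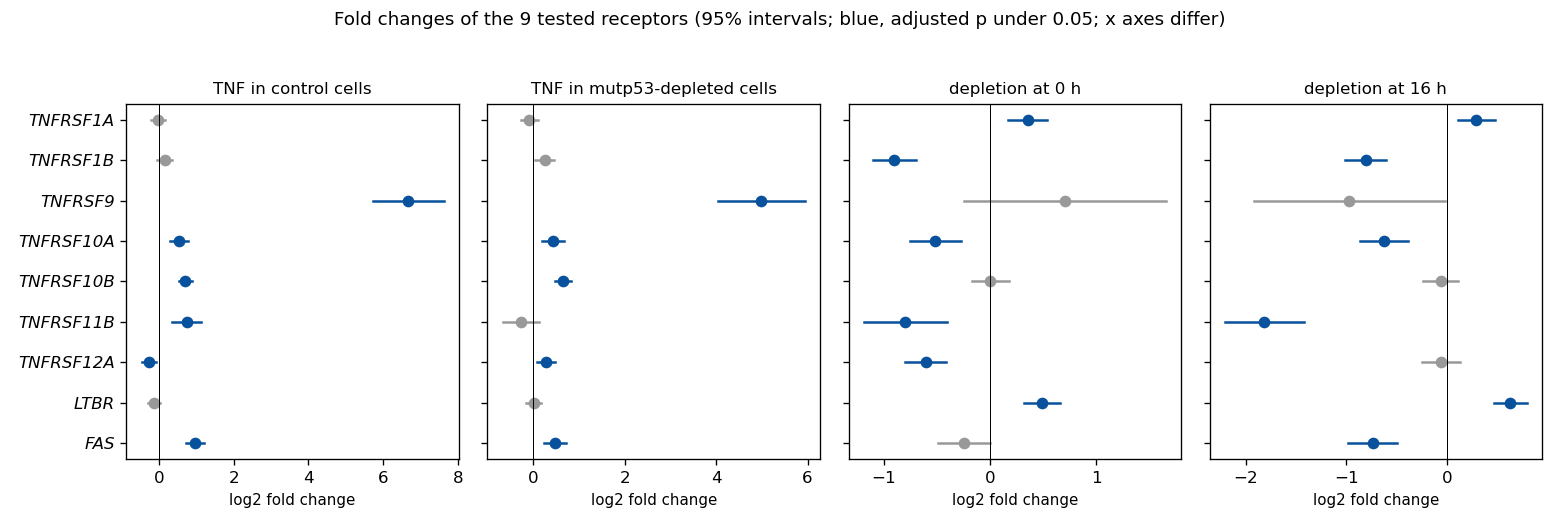
Log2 fold change (x axis, scaled per panel) of the 9 tested receptors for TNF-α in the control and in the depleted line and for mutp53 depletion at 0 h and at 16 h, with points for the limma estimate, bars for its 95% interval and blue where the adjusted p was below 0.05. TNFRSF9 stands at 6.66 and 4.99 in the TNF-α panels, and TNFRSF11B at -1.81 for depletion at 16 h.

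TNFRSF1A encodes TNFR1, the widely expressed receptor for soluble TNF-α (chromosome 12, 6437923 to 6451283, minus strand, hg19). It was at 1278 and 1244 normalized reads in the control line at 0 h, 1398 and 1111 at 16 h, 1661 and 1562 in the depleted line at 0 h and 1539 and 1511 at 16 h. All 4 mutp53-depleted libraries were above all 4 control libraries, and the TNF-α groups overlapped the 0 h groups within the control line. The log2 fold change with TNF-α was -0.02 in control cells (95% interval -0.20 to 0.17, adjusted p = 0.918) and -0.08 in mutp53-depleted cells (-0.26 to 0.11, adjusted p = 0.566), and neither interval reached a change of 2-fold. TNFRSF1A was 1.28-fold higher with depletion at 0 h (log2 0.35 ± 0.09, SE here and below, adjusted p = 0.00257) and 1.22-fold higher at 16 h (log2 0.29 ± 0.09, adjusted p = 0.0103), with the sign turned once the shift of its chromosome region was removed, as given below. At 16 h the call was lost without control replicate B, where the log2 fold change was 0.12 (adjusted p = 0.199), and without mutp53-depleted replicate A, where it was 0.28 (adjusted p = 0.0545).

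TNFRSF1B encodes TNFR2, which responds to membrane-bound TNF-α and signals through TRAF2 (chromosome 1, 12227060 to 12269277, plus strand, hg19). In control cells it was at 4314 and 4343 normalized reads at 0 h and 5453 and 4257 at 16 h, and in the depleted line at 2451 and 2189.7 at 0 h and 2935 and 2583 at 16 h. The highest mutp53-depleted library stood below the lowest control library. TNFRSF1B fell 1.87-fold with depletion at 0 h (log2 -0.90 ± 0.10, adjusted p = 3.47e-07) and 1.75-fold at 16 h (log2 -0.81 ± 0.10, adjusted p = 1.36e-06). With TNF-α the log2 fold change was 0.15 in control cells (95% interval -0.05 to 0.36, adjusted p = 0.267) and 0.25 in mutp53-depleted cells (0.05 to 0.45, adjusted p = 0.0648). The latter passed in 7 of 18 alternatives, among them edgeR's quasi-likelihood test on recovered reads (log2 0.31, adjusted p = 0.0178).

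The ratio of TNFRSF1B to TNFRSF1A, both per kb of gene model, combines both. It was 2.04 and 2.11 in control cells at 0 h and 2.36 and 2.32 at 16 h. In mutp53-depleted cells it was 0.892 and 0.847 at 0 h and 1.15 and 1.03 at 16 h. The groups of the 2 lines did not overlap, and within each line both 16 h libraries lay above both 0 h libraries. Most genes around TNFRSF1A were higher in the depleted line, as given below, and the part of that shift in the ratio was not tested.

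FAS is the death receptor for FASLG (chromosome 10, 90750288 to 90775542, plus strand, hg19). It was at 258 and 241 normalized reads in the control line at 0 h and 494 and 485 at 16 h, and at 226 and 195 in the depleted line at 0 h and 318 and 270.3 at 16 h. The groups did not overlap at any step. TNF-α raised FAS 1.96-fold in control cells (log2 0.97 ± 0.12, adjusted p = 3.41e-06) and 1.39-fold in mutp53-depleted cells (log2 0.48 ± 0.12, adjusted p = 0.00433). The latter call was lost without mutp53-depleted replicate B at 0 h (log2 0.37, adjusted p = 0.0818) and without replicate A at 16 h (log2 0.36, adjusted p = 0.0762). Depletion gave a log2 fold change of -0.24 at 0 h (adjusted p = 0.0823) and lowered FAS 1.67-fold at 16 h (log2 -0.74 ± 0.12, adjusted p = 2.98e-05). The difference between the 2 TNF-α responses was -0.49 on the log2 scale (95% interval -0.83 to -0.15, adjusted p = 0.132) and did not pass.

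TNFRSF10A and TNFRSF10B encode the TRAIL receptors DR4 and DR5, neighbors on chromosome 8 of similar sequence, and how reads that matched both were assigned is not given in the sources used here. TNFRSF10B was at 1160.4 and 1235 normalized reads in the control line at 0 h, 2052 and 1882 at 16 h, 1273 and 1128 in the depleted line at 0 h and 2013 and 1754 at 16 h. The 0 h groups of both lines overlapped, the 16 h groups did too, and every 16 h library lay above every 0 h library. TNFRSF10B rose 1.64-fold with TNF-α in control cells (log2 0.71 ± 0.08, adjusted p = 3.03e-06) and 1.57-fold in mutp53-depleted cells (log2 0.65 ± 0.08, adjusted p = 1.19e-05). For depletion its 95% intervals were -0.17 to 0.18 at 0 h and -0.24 to 0.11 at 16 h on the log2 scale.

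TNFRSF10A was at 372 and 497 normalized reads in the control line at 0 h, 616 and 640.2 at 16 h, 306 and 296 in the depleted line at 0 h and 414 and 399 at 16 h. It rose 1.46-fold with TNF-α in control cells (log2 0.55 ± 0.11, adjusted p = 0.00131) and 1.35-fold in mutp53-depleted cells (log2 0.43 ± 0.11, adjusted p = 0.0079). The latter call was lost without mutp53-depleted replicate B at 0 h (adjusted p = 0.0643) and without replicate A at 16 h (adjusted p = 0.051). The rise in control cells was 0.34 without control replicate A at 0 h (adjusted p = 0.038) and 0.75 without replicate B on the log2 scale. Depletion lowered TNFRSF10A 1.43-fold at 0 h (log2 -0.51 ± 0.11, adjusted p = 0.000874) and 1.54-fold at 16 h (log2 -0.63 ± 0.11, adjusted p = 0.000139). Without control replicate A at 0 h the fall at 0 h was 0.72 on the log2 scale, and without replicate B it was 0.31 (adjusted p = 0.0336).

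The ratio of TNFRSF10B to TNFRSF10A per kb was 1.31 and 1.04 in control cells at 0 h, 1.40 and 1.23 at 16 h, 1.75 and 1.60 in the depleted line at 0 h and 2.04 and 1.85 at 16 h. All mutp53-depleted libraries were above all control libraries, with TNFRSF10A lower and TNFRSF10B not called.

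TNFRSF9, also 4-1BB, is a costimulatory receptor best known from activated T cells (chromosome 1, 7975931 to 8003225, minus strand, hg19). Without TNF-α it was near the detection limit, at 2.90 and 16.7 normalized reads in control cells, from 4 and 11 reads, and at 18.8 and 8.23 in the depleted line, from 28 and 6 reads. After 16 h it was at 939 and 751 normalized reads in control cells and at 464 and 394 in the depleted line. Every 16 h library stood above every 0 h library, and at 16 h the control libraries stood above the mutp53-depleted ones.

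TNFRSF9 rose 101-fold with TNF-α in control cells (log2 6.66 ± 0.45, adjusted p = 2.31e-09) and 31.7-fold in mutp53-depleted cells (log2 4.99 ± 0.45, adjusted p = 1.53e-07), on the scale of log2(normalized reads + 1). Leaving out 1 library at a time moved the log2 value in control cells from 5.57 to 7.75, the ends being without control replicate A and without control replicate B at 0 h. For depletion at 16 h the log2 fold change was -0.97 (95% interval -1.92 to -0.02, adjusted p = 0.0814), not called in limma or DESeq2 (adjusted p = 0.279) and called in edgeR's quasi-likelihood test on recovered reads (log2 -0.99, adjusted p = 1.04e-06). The difference between the 2 TNF-α responses was -1.67 (95% interval -3.02 to -0.33, adjusted p = 0.216), and it rested on the 0 h counts, passing at -2.76 without control replicate B at 0 h (adjusted p = 0.00238) and falling to -0.59 without control replicate A (adjusted p = 0.588).

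Across the 8 libraries, the genes whose log2 values followed TNFRSF9 most closely were C3, STAT5A and SGK1, with Pearson correlations of 0.992, 0.986 and 0.985. These are descriptions over 8 libraries of 4 groups that share the TNF-α contrast.

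TNFRSF12A encodes Fn14, the receptor for TWEAK (chromosome 16, 3070313 to 3072383, plus strand, hg19). In control cells it was at 2781 and 2801 normalized reads at 0 h and 2641 and 2039 at 16 h, and in the depleted line at 1813 and 1857 at 0 h and 2142 and 2308 at 16 h. The groups of the 2 lines were apart at 0 h and overlapped at 16 h. Depletion lowered TNFRSF12A 1.52-fold at 0 h (log2 -0.60 ± 0.09, adjusted p = 2.13e-05), and at 16 h its log2 fold change was -0.06 (95% interval -0.25 to 0.13, adjusted p = 0.599). With TNF-α it fell in control cells (log2 -0.27 ± 0.09, adjusted p = 0.0388) and rose in mutp53-depleted cells (log2 0.28 ± 0.09, adjusted p = 0.0312). The fall in control cells passed in 6 of 18 alternatives, among them 3 of the 8 that leave out a single library. It was -0.08 without control replicate B at 16 h (adjusted p = 0.51), and between -0.45 and -0.08 over all 18. The rise in mutp53-depleted cells was lost without mutp53-depleted replicate A (adjusted p = 0.16) or B (adjusted p = 0.112) at 0 h and without replicate B at 16 h (adjusted p = 0.212), and also with no filter on low values (adjusted p = 0.0649).

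LTBR, the receptor for lymphotoxin β heterotrimers that feeds the noncanonical NFκB pathway, lies near TNFRSF1A (chromosome 12, 6493199 to 6500737, plus strand, hg19). It was at 1319 and 1292 normalized reads in the control line at 0 h, 1289 and 1118 at 16 h, 1917 and 1752 in the depleted line at 0 h and 1803 and 1903 at 16 h. The 2 lines did not overlap. With depletion LTBR was 1.40-fold higher at 0 h (log2 0.49 ± 0.08, adjusted p = 4.34e-05) and 1.54-fold higher at 16 h (log2 0.63 ± 0.08, adjusted p = 2.68e-06), with the sign turned once the shift of its chromosome region was removed. With TNF-α its log2 fold change was -0.12 in control cells (95% interval -0.29 to 0.04) and 0.01 in mutp53-depleted cells (-0.15 to 0.18).

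TNFRSF1A and LTBR shared a region in which most genes were higher in the mutp53-depleted line. The median log2 fold change for depletion of the 50 tested genes nearest to TNFRSF1A, over 1.78 Mb of chromosome 12, was 0.91 at 0 h, with quartiles of 0.54 and 1.27, and 0.74 at 16 h. At 0 h TNFRSF1A lay below 42 of these 50 genes and LTBR below 39 of its own 50. With the regional median subtracted, TNFRSF1A was at -0.50 at 0 h (adjusted p = 0.000233) and -0.47 at 16 h (adjusted p = 0.000432), and LTBR at -0.36 (adjusted p = 0.00275) and -0.13 (adjusted p = 0.254). These limma p-values take the regional median as fixed, so they measure replicate spread and not the spread among the 50 genes. A regional difference between the 2 stable lines and an effect of mutp53 on these genes cannot be told apart in this design.

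Around TNFRSF1B the 50 nearest genes spanned 4.9 Mb. Their median was -0.16 at 0 h, with quartiles of -0.56 and 0.23, and -0.09 at 16 h, with quartiles of -0.37 and 0.32. TNFRSF1B lay below 41 of them at 0 h and 44 at 16 h. Most of the tested genes at distances of -0.68 to 0.66 Mb were below these medians at both times, while TNFRSF8 was above. A narrower window was not tested. Regional medians were between -0.04 and 0.24 at 0 h for the other members, and between -0.24 and 0.11 at 16 h. Removing them ended no call of depletion for these members and added 1, FAS at 0 h (log2 -0.45, adjusted p = 0.00406). That p-value also leaves out the spread among the 50 genes nearest to FAS, of which 12 lay below FAS at 0 h.

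**Figure D4:**
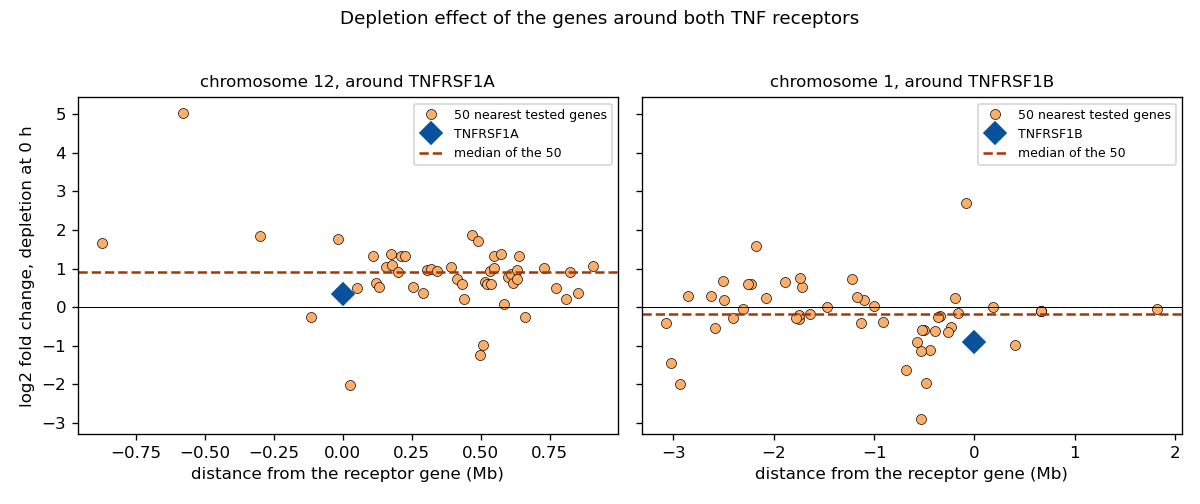
Log2 fold change for depletion at 0 h (y axis) of the 50 tested genes nearest to TNFRSF1A on chromosome 12 (left) and to TNFRSF1B on chromosome 1 (right), against their distance from the receptor gene in Mb (x axis), with the receptor as a diamond and the median of the 50 as a dashed line. The median was 0.91 around TNFRSF1A, which stood below it at 0.35, and -0.16 around TNFRSF1B, which stood at -0.90.

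TNFRSF11B, osteoprotegerin, is the secreted decoy among the 10 and lies on chromosome 8. It was at 485 and 468 normalized reads in the control line at 0 h and 862 and 739.8 at 16 h, and at 332 and 226 in the depleted line at 0 h and 297 and 173 at 16 h. Control cells were above mutp53-depleted cells at both times without overlap, and the 2 mutp53-depleted groups overlapped each other. TNF-α raised it 1.68-fold in control cells (log2 0.74 ± 0.19, adjusted p = 0.006), while in mutp53-depleted cells the log2 fold change was -0.27 (95% interval -0.67 to 0.12, adjusted p = 0.31). Depletion lowered it 1.74-fold at 0 h (log2 -0.80 ± 0.19, adjusted p = 0.00154) and 3.52-fold at 16 h (log2 -1.81 ± 0.19, adjusted p = 2.18e-07).

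The call at 0 h was lost without mutp53-depleted replicate B (log2 -0.52, adjusted p = 0.0568), and the rise in control cells without control replicate B at 0 h (log2 0.72, adjusted p = 0.0566) or replicate A at 16 h (log2 0.63, adjusted p = 0.0807), and in DESeq2 (log2 0.80, adjusted p = 0.0694). Genes that followed TNFRSF11B most closely over the 8 libraries were FAM219A, HLA-DQB1 and LRIG1, with Pearson correlations of 0.980, 0.978 and 0.974.

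The TNF-α response was compared between the 2 lines directly, as mutp53-depleted less control. TNFRSF11B was lower, at -1.02 ± 0.26 on the log2 scale (adjusted p = 0.0443), 1 of 9 members beside 2.21% of all tested genes. TNFRSF12A was higher, at 0.54 ± 0.13 (adjusted p = 0.0264), 1 of 9 beside 0.655%. The difference was negative for 6 of the 9, with a median of -0.07 beside -0.03 over all tested genes. Both calls were lost in several alternatives and, for each, without most of the single libraries, as given in the closing section.

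CD40, the receptor for CD40LG, had 0 reads in both control libraries at 0 h, 3 and 2 at 16 h, 1 and 1 in the depleted line at 0 h and 1 and 2 at 16 h. No library exceeded 3 reads, and a difference was not detectable at this depth.

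Of 19 other receptors of the superfamily, 12 were tested. With depletion at 0 h, 2 of the 12 were higher and 9 lower, beside 27.3% and 25.2% of all tested genes. At 16 h 3 were higher and 7 lower, beside 24.9% and 26.5%. Their medians were -0.68 and -0.70 on the log2 scale, beside 0.03 and -0.01 over all tested genes. With TNF-α in control cells 4 were higher and 4 lower, beside 11.1% and 15.2%, and in the depleted line 5 and 3, beside 9.80% and 16.9%.

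TNFRSF6B, the secreted decoy receptor DcR3 for FASLG, LIGHT and TL1A, passed in all 4 comparisons and in the difference between responses. Its exons are also part of the RTEL1 readthrough transcript, from which its reads cannot be told apart. It was at 152 and 179 normalized reads in the control line at 0 h and 3074 and 2993 at 16 h, against 53.6 and 45.2 in the depleted line at 0 h and 242 and 222 at 16 h. It rose 18.3-fold with TNF-α in control cells (log2 4.19, adjusted p = 2.64e-14) and 4.64-fold in mutp53-depleted cells (log2 2.21, adjusted p = 1.87e-10), a difference of -1.98 ± 0.17 (adjusted p = 2.33e-06). For depletion, the 50 genes nearest to TNFRSF6B had medians of -0.57 at 0 h and -0.534 at 16 h.

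TNFRSF18 (GITR), a costimulatory receptor, was at 79.8 and 74.2 normalized reads in the control line at 0 h and 250.4 and 176 at 16 h. It was at 7.40 to 12.6 in the 4 mutp53-depleted libraries, from 15 and 6 reads at each time. It was lower with depletion at both times (log2 -2.95 and -4.30, adjusted p = 1.62e-07 and 1.23e-09), and the size of these falls rests on those few reads. TNFRSF14 (HVEM), a receptor for LIGHT, rose with TNF-α in control cells (log2 1.00, adjusted p = 2.52e-05) and was lower with depletion at both times (log2 -1.23 and -1.35, adjusted p = 7.61e-07 and 2.42e-07). TNFRSF25 (DR3), a death-domain receptor for TL1A, was lower too (log2 -1.26 and -1.30, adjusted p = 0.000217 and 0.00016). The regional medians of these 3 genes were also negative. For depletion at 0 h and 16 h, medians of the 50 nearest genes were -0.361 and -0.295 around TNFRSF18. They were -0.384 and -0.357 around TNFRSF14 and -0.175 and -0.148 around TNFRSF25. The quartiles around TNFRSF25 had opposite signs, at -0.827 and 0.28 at 0 h and -0.923 and 0.117 at 16 h. The part of these shifts in the falls was not tested.

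NGFR, the low-affinity neurotrophin receptor, and TNFRSF8 (CD30) were higher with depletion. NGFR was at 1596 and 1660.4 normalized reads in the control line at 0 h and 3420 and 3114 in mutp53-depleted cells (log2 1.00, adjusted p = 2.76e-08), in a region of chromosome 17 whose 50 nearest genes had a median of 0.57. NGFR fell with TNF-α in control and in mutp53-depleted cells (log2 -0.87 and -0.59, limma adjusted p = 4.5e-07 and 6e-05). TNFRSF8, close to TNFRSF1B on chromosome 1, was at 7.98 and 1.51 in control cells at 0 h, from 11 and 1 reads, and 30.8 and 28.8 in mutp53-depleted cells (adjusted p = 0.00108), and no fold is given on so few reads. The neighbors TNFRSF1B and TNFRSF8 moved in opposite directions with depletion.

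EDAR, the ectodysplasin receptor, and TNFRSF19 fell with TNF-α in both lines. EDAR went from 1928 and 1935 normalized reads to 894 and 953 in control cells and from 1525 and 1172 to 358 and 238 in mutp53-depleted cells, a difference of -1.13 ± 0.20 on the log2 scale (adjusted p = 0.00255). TNFRSF19 fell by 1.44 on the log2 scale in control cells (adjusted p = 1.99e-08) and by 1.08 in mutp53-depleted cells (adjusted p = 1.06e-06). With depletion at 0 h and 16 h, EDAR was lower too (log2 -0.53 and -1.66, limma adjusted p = 0.00342 and 1.32e-08). So was TNFRSF19 (log2 -1.11 and -0.76, limma adjusted p = 2.05e-07 and 2.09e-05). TNFRSF21 (DR6), a death-domain receptor, fell with TNF-α in control cells and rose in mutp53-depleted cells, a difference of 0.88 ± 0.13 (adjusted p = 0.000597).

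**Figure D5:**
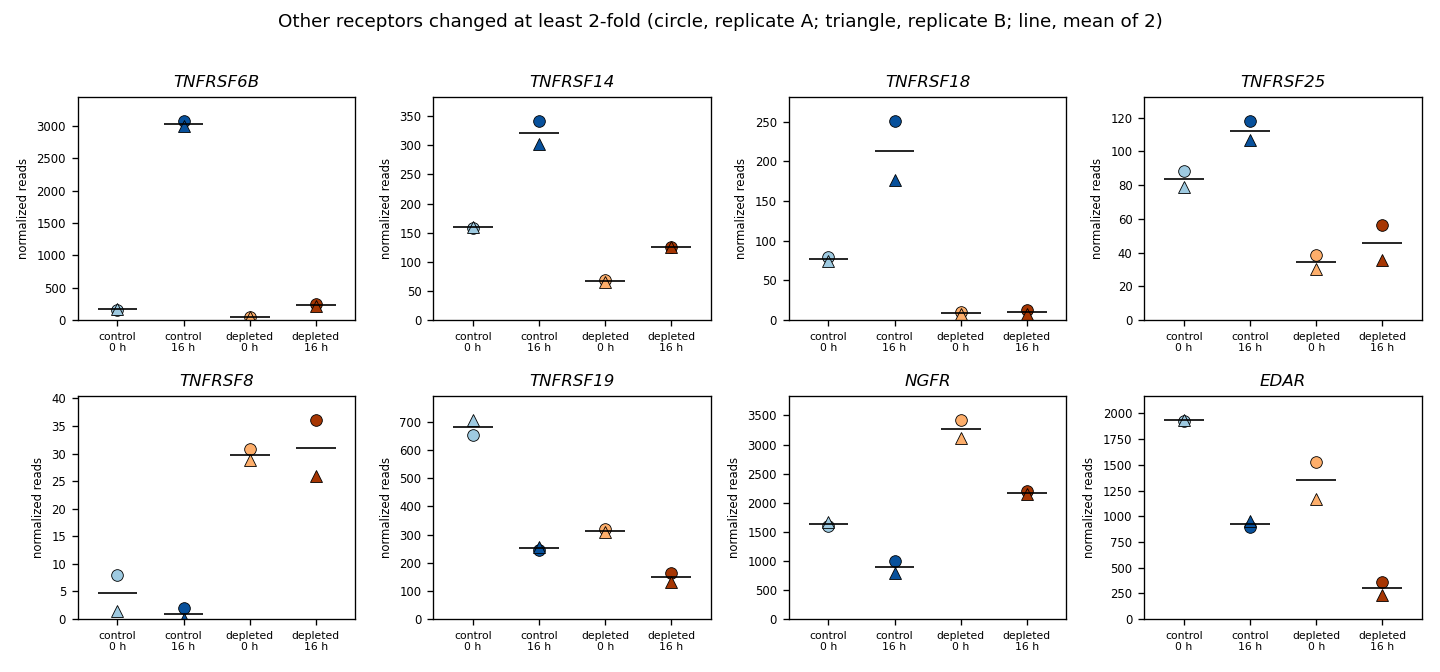
Normalized reads (y axis, linear, from 0, scaled per gene) of 8 other receptors that changed at least 2-fold in control cells with TNF-α or with depletion, by group (x axis), with a circle for replicate A, a triangle for replicate B and a line for the mean of the 2. TNFRSF6B reached 3074 and 2993 in control cells at 16 h against 242 and 222 in mutp53-depleted cells, and NGFR and TNFRSF8 were higher in all mutp53-depleted libraries.

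Among 10 ligands of these receptors, 7 were tested, and 4 rose with TNF-α in control cells, beside 11.1% of all tested genes, while 3 rose and 1 fell in the depleted line, beside 9.80% and 16.9%. With depletion 3 were higher and 2 lower at 0 h, beside 27.3% and 25.2%, and 5 were lower at 16 h, beside 26.5%, where the other 2 did not pass. Among the 3 higher at 0 h, LTA had 1 and 0 reads in control cells and 10 and 1 in the depleted line. LTB had 6 and 0 against 11 and 2 (limma adjusted p = 0.0482), so both calls rest on few reads. LTB, part of the LTBR ligand, was at 4.35 and 0 normalized reads in the control line at 0 h and 2791 and 2374 at 16 h, against 7.37 and 2.74 at 0 h and 151 and 92.6 at 16 h in the depleted line. At 16 h it was 21.6-fold lower with depletion (log2 -4.43, adjusted p = 1.14e-06). TNF itself was at 0.73 and 0 normalized reads in the control line at 0 h, 152 and 124 at 16 h, 1.34 and 1.37 in the depleted line at 0 h and 41.9 and 29.6 at 16 h. TNFSF10 (TRAIL), the ligand of TNFRSF10A and TNFRSF10B, rose in control cells (log2 1.01, adjusted p = 0.00784) and fell in the depleted line (log2 -1.75, adjusted p = 6.44e-05), a difference of -2.75 (adjusted p = 0.000252).

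TNFSF9, the ligand of TNFRSF9, was lower with depletion at both times (log2 -1.95 and -1.42, adjusted p = 2.57e-06 and 9.4e-05), and FASLG was too (log2 -1.18 and -2.27, adjusted p = 0.0206 and 0.000125). Mean FASLG was 21.2 normalized reads at 0 h and 24.9 at 16 h in control cells, against 8.8 and 4.4 in the depleted line. The size of the FASLG falls thus rests on few reads.

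Of 15 genes that act next to the receptors, all were tested, and 9 rose with TNF-α in control cells and 7 in the depleted line, beside 11.1% and 9.80% of all tested genes, while the others did not pass. BIRC3 (cIAP2), an inhibitor of apoptosis bound to TRAF2, was at 7.98 and 16.7 normalized reads in the control line at 0 h and 1371 and 1169 at 16 h, and at 188 and 176 in the depleted line at 0 h and 2591 and 2541 at 16 h. It was thus higher with depletion at 0 h (log2 3.86) and rose less on the log2 scale in the depleted line (difference -2.84, adjusted p = 1.46e-05). TRAF1, an adaptor of TNFRSF1B and TNFRSF9, rose by log2 3.82 in control cells and 4.37 in the depleted line. TNFAIP3 (A20), which restrains NFκB signaling, rose by log2 6.09 and 4.15. With depletion at 0 h, 8 of the 15 were higher and 3 lower, beside 27.3% and 25.2% of all tested genes. At 16 h 4 were higher and 3 lower, near the shares of 24.9% and 26.5%.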

How the data were processed

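Poly(A) RNA of 4 groups of SW480 cells was sequenced as strand-specific 50-base reads, with 2 biological replicates per group. The authors mapped reads with STAR, counted reads on RefSeq exons with HOMER and tested them with edgeR, with versions not given in the sources used here. The methods name hg38, but the coordinates and command in the table are hg19. The deposited signal values are reads on exons multiplied by 1 factor per library. From 99.955% to 100% of values were whole multiples of that step, which gave the reads back (6108488 to 13809578 per library). Columns with the authors' fold changes and p-values were not used, and 0 other per-sample columns were present.

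Values were tested as log2(normalized reads + 1) with limma 3.58.1 (R 4.3.3) over all 8 libraries, for 14800 of 26457 genes with a mean of at least 2.5, with Benjamini-Hochberg adjustment and a threshold of 0.05, plus 2-fold where said. The unit was not the one the count test needs, so edgeR 4.0.16 and DESeq2 1.42.0 on recovered reads were alternatives, beside other scaling, filters, pseudocounts, a replicate block, removal of the median of the 50 nearest genes, and leaving out each of the 8 libraries. The limma comparison for TNF-α in control cells was tried on simulated reads, and the other comparisons and fits were not. With 2 libraries per group the spread is shared across groups. Replicates A and B differed by more than sampling noise in every group (chi-square per gene 2.08 to 3.93). Deviations of same-lettered libraries correlated between groups at -0.02 to 0.07, so letters were not taken as pairs. Coverage of 1 to 3 reads carries no fold. Intervals cover 95%.

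Members and lists were chosen with earlier results of these data known. All 10 members are named. Of the lists, a gene could be named if it passed with 2-fold in control cells with TNF-α or with depletion, or passed in the difference between responses. Promoter sequences are from RefSeq (GRCh38.p14), and no hg19 coordinate was set against them. Figures were drawn with matplotlib 3.10.9. The level of the shRNA target is not reported here.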

Additional observations from a re-analysis of the deposited data

Results flagged for a closer look

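The TNF-α response of TNFRSF11B differed between the lines, by -1.018 on the log2 scale (mutp53-depleted less control, limma adjusted p = 0.0443). Both control libraries at 16 h were above both at 0 h, and the mutp53-depleted groups overlapped. The call was lost without any filter (adjusted p = 0.127), with a pseudocount of 0.1 (0.0986), in DESeq2 (adjusted p = 0.452) and without 6 of the 8 single libraries, over which the value ran from -1.41 to -0.63. It passed without mutp53-depleted replicate B at 0 h (-1.29, adjusted p = 0.0198) and without mutp53-depleted replicate A at 16 h (-1.41, adjusted p = 0.000821).

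The TNF-α response of TNFRSF12A differed the other way, by 0.543 (adjusted p = 0.0264), with lower values at 16 h in control libraries and higher ones in mutp53-depleted libraries. The call was lost without any filter (adjusted p = 0.0759), with a pseudocount of 0.1 (0.056) and without 6 of the 8 single libraries, with values from 0.36 to 0.73, and passed without control replicate A (0.73, adjusted p = 0.000954) or mutp53-depleted replicate A at 16 h (0.60, adjusted p = 0.0368). In DESeq2 it passed (0.55, adjusted p = 0.0169).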

How the results depend on the processing

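Counts of members past the threshold were within 1.5 times of those reported in the alternatives run, apart from these. The count for the difference between responses was 0 without the filter, 0 with a pseudocount of 0.1 and 1 in DESeq2. With 2-fold added the counts were 1 and 1 for TNF-α in control and mutp53-depleted cells, and 0 and 1 for depletion at 0 h and 16 h. Leaving out 1 library at a time gave 4 to 6 for TNF-α in the control line, 2 to 6 in the depleted line (2 without mutp53-depleted replicate B at 0 h), 5 to 7 for depletion at either time and 0 to 2 for the difference. EdgeR's exact test gives no such difference and was not run for it.

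With the regional median removed, depletion of TNFRSF1A turned to -0.50 and -0.47 and of LTBR to -0.36 and -0.13, and of TNFRSF12A at 16 h to 0.14. Other signs turned only where the reported value was not called: TNFRSF1A with TNF-α in control cells (0.026 with median ratios, 0.038 in edgeR's quasi-likelihood test, 0.036 in its exact test and 0.043 in DESeq2) and, by region, in mutp53-depleted cells (0.014), TNFRSF10B for depletion at 0 h (-0.02, -0.016, -0.018, -0.01 and, by region, -0.009) and at 16 h (0.007, by region), and the differences of TNFRSF1A (0.031) and TNFRSF10B (0.016) by region. The cause was not tested.

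Leaving out 1 library gave ranges across 0 for TNFRSF1A with TNF-α in control cells (-0.18 to 0.15) and its difference (-0.23 to 0.10), TNFRSF1B with TNF-α in control cells (-0.024 to 0.33) and its difference (-0.084 to 0.27), TNFRSF9 for depletion at 0 h (-0.39 to 1.79), TNFRSF10A's difference (-0.32 to 0.10), TNFRSF10B for depletion at 0 h (-0.085 to 0.088), at 16 h (-0.16 to 0.034) and its difference (-0.17 to 0.033), TNFRSF11B with TNF-α in mutp53-depleted cells (-0.66 to 0.12), TNFRSF12A for depletion at 16 h (-0.25 to 0.12) and LTBR with TNF-α in mutp53-depleted cells (-0.05 to 0.08). None of these was called as reported.

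With replicate letters as a replicate block, 1 call was added, TNFRSF1B with TNF-α in mutp53-depleted cells (0.25, adjusted p = 0.0138), and none was lost. Letters did not pair the libraries. Depth limits TNFRSF9 at 0 h (4 to 28 reads) and CD40 (at most 3 reads).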
